A study of Mus musculus with 14 samples.

Results

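Levels of 9 genes that move calcium across T cell membranes, or sense it, were followed in CD4+ T cells from mice with and without chronic graft-versus-host disease (cGVHD). The genes were taken by symbol from the counts file: Cacna1d, Orai1, Stim1, Stim2, Atp2a2, Atp2a3, Atp2b1, Atp2b2 and Atp2b4. They are 9 of the 25017 genes in that file, and all 9 passed the filter on low counts, which left 13780 genes for testing. The genes were chosen by symbol with levels measured in these same libraries known beforehand, and which of those values decided is not recorded, so the p-values below set differences against the spread between libraries and are no independent evidence that these genes stand out. The lowest count of any of the 9 in any library was 45.

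CD4+ T cells of donor (C57BL/6, B6) origin were sorted from BALB/c recipients 30 days after transplantation, by their surface level of PSGL1 (P-selectin glycoprotein ligand, a selectin-binding protein encoded by Selplg). All recipients received T-cell-depleted bone marrow from B6 donors. Recipients that developed cGVHD also received donor splenocytes, and GVHD-free recipients did not, so disease and the transfer of splenocytes cannot be told apart. The 7 groups were lung PSGL1lo, lung PSGL1hi, liver PSGL1lo, liver PSGL1hi, spleen PSGL1lo and spleen PSGL1hi cells from cGVHD mice, and spleen PSGL1lo cells from GVHD-free mice, with 2 libraries each. The labels give neither age nor sex, nor whether the 2 libraries of a group came from separate mice or from pools, so a p-value sets a difference against the spread of these libraries only, which may be technical.

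T cells signal through calcium. Engagement of the antigen receptor opens inositol trisphosphate receptors in the endoplasmic reticulum, the fall of calcium in this store is sensed by STIM proteins, and these open ORAI channels in the plasma membrane. The calcium that enters binds calmodulin and activates the phosphatase calcineurin, which lets NFAT transcription factors move into the nucleus. SERCA pumps (Atp2a genes) return calcium to the store, PMCA pumps (Atp2b genes) push it out of the cell, and CACNA1 genes encode pore subunits of voltage-gated calcium channels, best known from excitable cells.

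Cacna1d and Atp2b2 were the members that varied most between groups, and they differed between the PSGL1 fractions most in the lung. The upstream promoter entry of each is shown for that reason. RefSeq's promoter table (GRCm38.p6) gave 12 entries of 300 bases for 8 of the 9 genes. The Cacna1d entry lies at chr14:30491107-30491406 on the minus strand and the Atp2b2 entry at chr6:114042031-114042330 on the minus strand, each written 5′ to 3′ with 250 bases before the start and 50 after it. Capitals mark the core of NFAT sites, GGAAA, on either strand.
Cacna1d: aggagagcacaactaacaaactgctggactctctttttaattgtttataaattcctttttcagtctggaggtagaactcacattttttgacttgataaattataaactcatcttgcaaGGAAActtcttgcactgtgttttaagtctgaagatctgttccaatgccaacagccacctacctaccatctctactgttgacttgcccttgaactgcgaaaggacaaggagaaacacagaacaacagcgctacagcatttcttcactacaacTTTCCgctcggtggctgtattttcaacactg
Atp2b2: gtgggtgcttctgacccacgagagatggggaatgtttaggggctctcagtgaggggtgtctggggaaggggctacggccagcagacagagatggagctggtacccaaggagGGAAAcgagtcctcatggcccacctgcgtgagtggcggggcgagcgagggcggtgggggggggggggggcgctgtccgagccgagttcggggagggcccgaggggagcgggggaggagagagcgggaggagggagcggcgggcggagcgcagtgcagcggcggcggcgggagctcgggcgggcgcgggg
The Cacna1d entry held 2 such cores and the Atp2b2 entry held 1, and 61.3% of all 32851 promoters in the table held at least 1. Their base composition differed, with 40.3% G and C in the Cacna1d entry and 72.7% in the Atp2b2 entry. A downstream Cacna1d entry at chr14:30353437-30353736 held no core and was 87.3% G and C. A downstream Atp2b2 entry at chr6:113934632-113934931 held 1 core and was 54% G and C. Another Atp2b2 entry, at chr6:113891490-113891789, held no core and was 58.7% G and C. The AP-1 motif TGANTCA, found in 7.81% of all promoters, was in none of the 12 entries of these genes. An E-box, CANNTG, was found in 72.3% of all promoters; the upstream Atp2b2 entry held 1 and the upstream Cacna1d entry held 0. The counts do not show which start site the cells used, and a match is a description of letters only.

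The libraries held 13222005 to 33532595 counts. Levels are in CPM, counts per 1000000 of the library after TMM scaling, and 3 counts, the limit that a count of 0 allows, equal 0.0859 to 0.223 CPM. Summed CD4 T cell markers lay between 4221 and 4607 CPM in the spleen libraries and between 6529 and 7332 CPM in those of liver and lung. None of the 7 markers was at 0 in any group. Selplg itself was lower in PSGL1lo than in PSGL1hi cells in each tissue, with means of 420 ± 51.7 and 960 ± 48.7 CPM for the lung fractions, 576 ± 50.6 and 923 ± 20.3 CPM for those of liver, and 259 ± 30.2 and 503 ± 17.4 CPM for those of cGVHD spleen (PSGL1lo, then PSGL1hi; SD, n = 2 each). Library numbers in the labels fall into 1 run for spleen and another for liver and lung, so spleen against liver or lung cannot be told apart from this split in numbering. Counts of the libraries of a group differed beyond sampling noise, with a chi-square per degree of freedom of 2.97 in GVHD-free spleen to 18.6 in liver PSGL1lo. In bulk RNA, fewer cells that express a gene and less RNA per cell cannot be told apart.

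Per kilobase of exon, the store pump gene Atp2a3 had the highest level of the 9 in every group. In lung PSGL1lo cells Atp2a3 stood at 107 CPM per kb, Orai1 at 54.3, Atp2a2 at 38.7, Stim1 at 31.5, Atp2b1 at 30.0, Atp2b4 at 27.0 and Stim2 at 25.2 CPM per kb. Cacna1d and Atp2b2 were far lower there, at 4.73 and 2.47 CPM per kb. In lung PSGL1hi cells they reached only 0.450 and 0.210 CPM per kb, against 142 CPM per kb for Atp2a3. The other 7 genes thus lay well above Cacna1d and Atp2b2 per kilobase in both lung fractions, and their order among themselves changed between groups. In liver PSGL1hi cells, for example, Atp2b4 stood at 40.6, Stim1 at 35.3, Orai1 at 28.9 and Stim2 at 24.3 CPM per kb. Exon lengths came from a later annotation than the one used for counting, so these levels are approximate.

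Cacna1d encodes the pore of an L-type voltage-gated calcium channel. In lung, its level was 49.3 and 35.7 CPM in the PSGL1lo libraries, against 3.98 and 4.11 CPM in the PSGL1hi libraries. In liver it was 28.8 and 40.3 CPM in PSGL1lo cells, against 13.6 and 15.2 CPM in PSGL1hi cells. In spleen it was 24.5 and 25.7 CPM in PSGL1lo cells of cGVHD mice, against 9.92 and 9.47 CPM in PSGL1hi cells. Every PSGL1lo library was above every PSGL1hi library, across tissues as well as within them. The GVHD-free spleen PSGL1lo libraries, at 23.3 and 21.2 CPM, lay just below those of the cGVHD spleen.

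The fraction difference of Cacna1d was largest in the lung. There it was 10.5-fold, a log2 change of 3.39 ± 0.18 (SE; edgeR quasi-likelihood test, adjusted p = 7.03e-12), and ranked 111th highest of the 13780 genes. In liver the log2 change was 1.25 ± 0.15 (adjusted p = 3.32e-06), and in spleen 1.37 ± 0.17 (adjusted p = 1.81e-06). The lung effect exceeded the liver effect by 2.14 ± 0.24 on the log2 scale (interaction contrast, adjusted p = 5.15e-06) and the spleen effect by 2.02 ± 0.25 (adjusted p = 6.68e-06). Liver and spleen effects differed by -0.12 ± 0.23 (adjusted p = 0.814). Between these organs, lung PSGL1hi lay below liver PSGL1hi by a log2 change of -1.83 ± 0.19 (adjusted p = 8.14e-08), while lung against liver PSGL1lo was 0.31 ± 0.14 (adjusted p = 0.0967), with overlapping libraries.

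**Figure D1:**
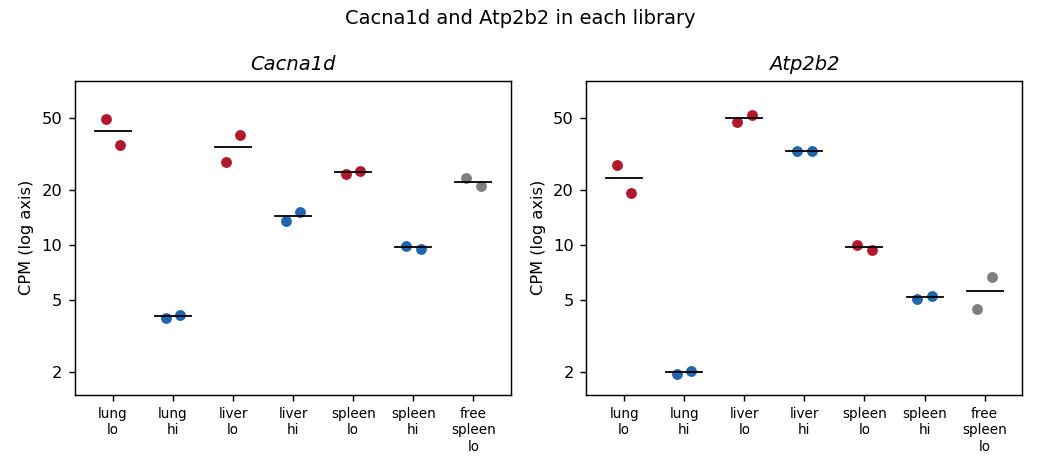
Levels of Cacna1d (left) and Atp2b2 (right) in CPM on a log axis, with 1 point per library (red PSGL1lo, blue PSGL1hi, grey GVHD-free) and a line at each group mean. In Cacna1d every red point lies above every blue one; in Atp2b2 both liver groups lie above all the others, with 32.8 CPM in the lowest liver library.

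At the Cacna1d locus, Chdh (choline dehydrogenase) lies on the opposite strand and shares 6.54% of the exonic bases of Cacna1d. The sources used here do not give the strand setting of the counting, so reads from the shared stretch cannot be assigned. Chdh was at 5.26 ± 0.00847 CPM in lung PSGL1lo and 2.91 ± 0.205 CPM in lung PSGL1hi cells (log2 change 0.85 ± 0.24, edgeR adjusted p = 0.00910). In spleen it went the other way, at 2.92 ± 0.124 CPM in the PSGL1lo cells and 6.49 ± 1.48 CPM in PSGL1hi cells (log2 change -1.15 ± 0.26, adjusted p = 0.00145). All these Chdh levels are below the PSGL1lo levels of Cacna1d. In PSGL1hi cells the levels were closer, with Cacna1d at 4.05 ± 0.0969 CPM in lung and 9.69 ± 0.322 CPM in spleen. Chdh was highest in GVHD-free spleen PSGL1lo cells, at 9.26 ± 0.946 CPM, where Cacna1d was at 22.2 ± 1.47 CPM. The part of the shared stretch in the Cacna1d counts was not tested.

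Atp2b2 encodes a plasma membrane calcium pump known mainly from neurons and hair cells of the inner ear. In lung it was at 27.6 and 19.3 CPM in PSGL1lo cells, against 1.95 and 2.04 CPM in PSGL1hi cells. In liver it was at 47.4 and 52.2 CPM in PSGL1lo cells, against 32.8 and 32.8 CPM in PSGL1hi cells. In spleen it was at 9.98 and 9.41 CPM in PSGL1lo cells of cGVHD mice, against 5.05 and 5.23 CPM in PSGL1hi cells. Within each tissue both PSGL1lo libraries were above both PSGL1hi libraries, but the tissues were set far apart, with liver PSGL1hi above lung PSGL1lo. GVHD-free spleen PSGL1lo cells had 4.45 and 6.66 CPM, close to the PSGL1hi level of the cGVHD spleen.

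The Atp2b2 fraction difference was 11.7-fold in lung, a log2 change of 3.55 ± 0.19 (edgeR adjusted p = 1.01e-11), the 95th highest of the 13780 genes. It was 0.60 ± 0.14 in liver (adjusted p = 0.00329) and 0.91 ± 0.19 in spleen (adjusted p = 0.000780). Lung exceeded liver by 2.95 ± 0.24 (interaction contrast, adjusted p = 4.20e-07) and spleen by 2.64 ± 0.28 (adjusted p = 1.09e-06). Between the organs, lung lay below liver in both fractions, by a log2 change of -1.08 ± 0.14 in PSGL1lo cells (adjusted p = 3.02e-06) and of -4.04 ± 0.19 in PSGL1hi cells (adjusted p = 3.25e-13). The highest group mean, 49.8 CPM in liver PSGL1lo, was 25.0-fold the lowest, 1.99 CPM in lung PSGL1hi, against 10.5-fold from highest to lowest for Cacna1d. The fraction and interaction calls of Cacna1d and Atp2b2 in lung held when any 1 library was left out.

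Markers of other cell types were summed in the same libraries. In lung, the summed level of 7 lung epithelium markers was 63.1 to 158 CPM in the PSGL1lo cells and 237 to 263 CPM in PSGL1hi libraries, with none at 0. Most of these markers gave no call: of 6 tested, 0 were higher, 1 was lower and 5 were not called in lung PSGL1lo cells, with a median log2 change of -0.05. The 2 CD8 markers summed to 12.1 to 12.4 CPM in lung PSGL1lo and 28.5 to 30.6 CPM in lung PSGL1hi libraries, with none at 0. The 6 NK cell markers summed to 186 to 214 CPM in lung PSGL1lo, where Ncr1 and Klra8 were at 0, and to 363 to 379 CPM in lung PSGL1hi, where none was at 0. The 18 myeloid markers overlapped, at 874 to 1340 CPM in lung PSGL1lo (Siglech and Clec4f at 0) and 812 to 1013 CPM in lung PSGL1hi libraries (Clec4f at 0). The 10 endothelium and stroma markers summed to 199 to 212 CPM in lung PSGL1lo and 149 to 151 CPM in lung PSGL1hi libraries, with none at 0. Single markers did not follow this sum: of 8 tested, 1 was higher and 3 lower in lung PSGL1lo cells, with a median log2 change of -0.01. Their part in the results was not tested.

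Across the 9 genes in lung, 2 were higher and 5 lower in PSGL1lo than in PSGL1hi cells at an adjusted p under 0.05 (a call). Over all genes tested 33% were called there, 12.9% higher and 20.1% lower. In liver 4 were higher and 4 lower (20.8% of all genes called, 8.5% higher and 12.3% lower), and in spleen 4 were higher and 1 lower (32.5% of all genes, 15.8% higher and 16.7% lower). The median log2 change of the 9 was -0.37 in lung, -0.21 in liver and -0.01 in spleen, against -0.03, -0.02 and 0.00 over all genes tested. Cacna1d and Atp2b2 rose in all 3 tissues and Atp2b1 fell in all 3, while the other genes were called in 1 or 2 tissues. Since the list was made with results known, nothing is read from these counts.

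**Figure D2:**
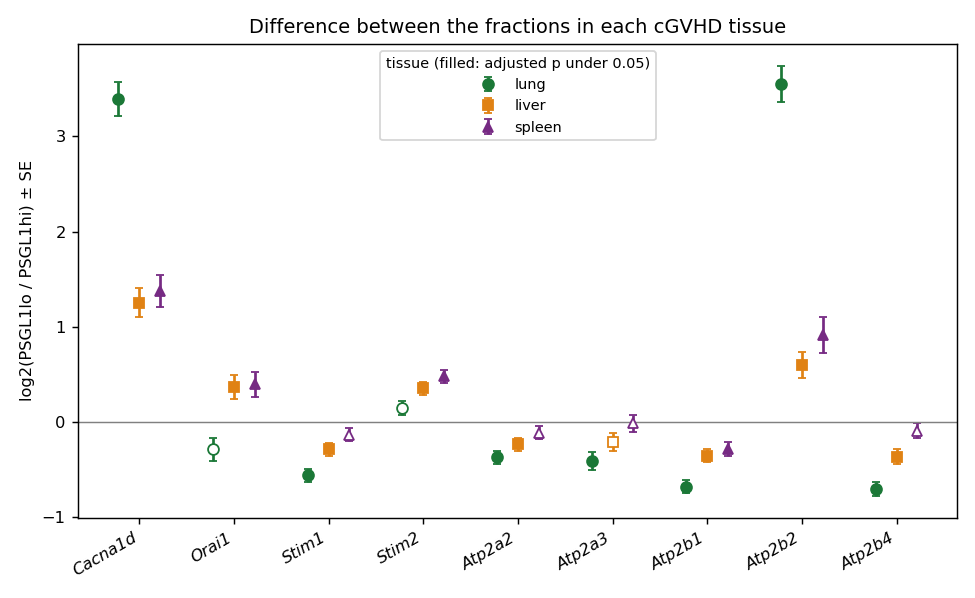
Log2 change of PSGL1lo over PSGL1hi cells (vertical axis) with SE bars for each of the 9 genes in lung (circles), liver (squares) and spleen (triangles); filled symbols have an adjusted p under 0.05. Cacna1d and Atp2b2 stand at 3.39 and 3.55 in lung, and Orai1 lies below 0 in lung but above 0 in liver and spleen.

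Orai1, the pore subunit of the store-operated channel, was highest in the lung. It was at 108 and 96.2 CPM in lung PSGL1lo cells, against 136 and 113 CPM in lung PSGL1hi cells. It was at 73.6 and 65.8 CPM in liver PSGL1lo cells, against 51.6 and 56.6 CPM in liver PSGL1hi cells. In spleen of cGVHD mice it was at 85.2 and 62.6 CPM in PSGL1lo cells, against 61.2 and 50.8 CPM in PSGL1hi cells. The fractions did not overlap in any tissue, but PSGL1lo cells were the lower ones in lung and the higher ones in liver and spleen.

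By test, lung PSGL1lo against PSGL1hi Orai1 had a log2 change of -0.29 ± 0.12, which did not pass (edgeR adjusted p = 0.0840). The rise in liver, 0.37 ± 0.13 (adjusted p = 0.0455), passed only narrowly: it was lost without liver PSGL1lo replicate 1 (0.28) and without either liver PSGL1hi library (0.30 without replicate 1 and 0.43 without replicate 2). The rise in spleen, 0.40 ± 0.13 (adjusted p = 0.0238), was lost without spleen PSGL1lo replicate 1 (0.16) or spleen PSGL1hi replicate 2 (0.26), and it was 0.60 without spleen PSGL1lo replicate 2. The lung effect differed from the liver effect by -0.65 ± 0.18 (adjusted p = 0.0300) and from the spleen effect by -0.68 ± 0.18 (adjusted p = 0.0115). The difference from liver was lost without liver PSGL1lo replicate 1, either liver PSGL1hi library, lung PSGL1lo replicate 2 or lung PSGL1hi replicate 1 (log2 values from -0.78 to -0.51 over all left-out libraries). The difference from spleen was lost without spleen PSGL1lo replicate 1, which gave -0.45, without spleen PSGL1hi replicate 2, lung PSGL1lo replicate 2 or lung PSGL1hi replicate 1. What held in every such run was the tissue difference: lung exceeded liver by a log2 change of 0.55 ± 0.13 in PSGL1lo (adjusted p = 0.00153) and 1.20 ± 0.13 in PSGL1hi cells (adjusted p = 1.69e-07).

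The store sensors Stim1 and Stim2 differed between the fractions in opposite directions. Stim1, the main sensor for store-operated entry in T cells, was at 140 and 141 CPM in lung PSGL1lo cells, against 205 and 209 CPM in lung PSGL1hi cells. It was at 127 and 131 CPM in liver PSGL1lo cells, against 151 and 163 CPM in liver PSGL1hi cells. In cGVHD spleen it was at 101 and 102 CPM in PSGL1lo cells, against 113 and 109 CPM in PSGL1hi cells. The PSGL1lo libraries were the lower ones in each tissue. The log2 change was -0.56 ± 0.07 in lung (edgeR adjusted p = 1.20e-06), -0.28 ± 0.07 in liver (adjusted p = 0.00451; lost without liver PSGL1hi replicate 2, -0.23) and -0.13 ± 0.07 in spleen, which did not pass (adjusted p = 0.159). The lung effect was more negative than the spleen effect by -0.43 ± 0.10 (adjusted p = 0.00411), and against liver the difference was -0.28 ± 0.10 (adjusted p = 0.102).

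Stim2, which responds to smaller falls of store calcium, was at 124 and 126 CPM in lung PSGL1lo cells, against 111 and 115 CPM in lung PSGL1hi cells. It was at 150 and 157 CPM in liver PSGL1lo cells, against 120 and 120 CPM in liver PSGL1hi cells. In cGVHD spleen it was at 164 and 164 CPM in PSGL1lo cells, against 111 and 124 CPM in PSGL1hi cells. Here the PSGL1lo libraries were the higher ones in each tissue. The log2 change was 0.15 ± 0.07 in lung, which did not pass (edgeR adjusted p = 0.127), 0.35 ± 0.07 in liver (adjusted p = 0.000939) and 0.48 ± 0.07 in spleen (adjusted p = 2.41e-05). The lung effect was below the spleen effect by -0.33 ± 0.10 (adjusted p = 0.0265), a call lost without any 1 of 7 of the 8 libraries, spleen PSGL1hi replicate 2 being the exception, and -0.21 without spleen PSGL1hi replicate 1.

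The counts of Stim1 over those of Stim2 in the same library, which no library scaling can change, gave a mean log2 ratio of 0.16 ± 0.0031 in lung PSGL1lo and 0.87 ± 0.018 in lung PSGL1hi cells (SD, n = 2 each). It was -0.25 ± 0.014 in liver PSGL1lo and 0.38 ± 0.083 in liver PSGL1hi cells, and -0.69 ± 0.019 in spleen PSGL1lo and -0.08 ± 0.15 in spleen PSGL1hi cells. In each tissue both PSGL1lo libraries had the lower ratio, and lung had a higher ratio than liver and liver than spleen within each fraction. These ratios are given as values, and no test was run on them.

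**Figure D3:**
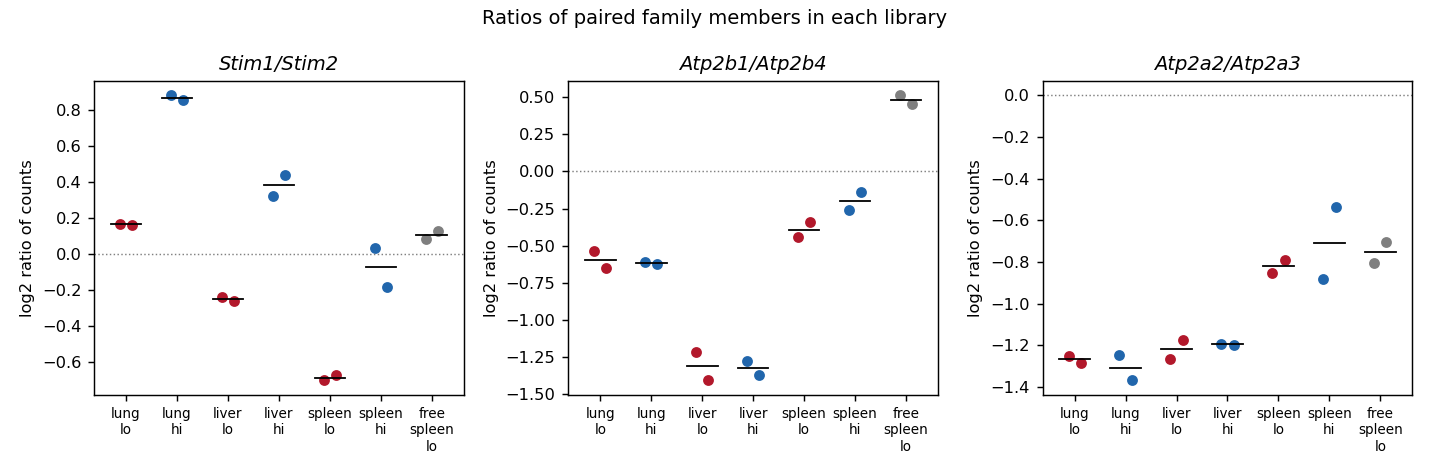
Log2 ratio of counts of related genes in each library (vertical axis; red PSGL1lo, blue PSGL1hi, grey GVHD-free; lines are group means; dotted line at 0). Stim1 over Stim2 is lower in PSGL1lo than in PSGL1hi cells of each tissue, while Atp2b1 over Atp2b4 differs more between tissues than between fractions and averages -1.31 in liver PSGL1lo and 0.48 in GVHD-free spleen.

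The SERCA genes were lower in PSGL1lo cells of the lung. Atp2a3, the SERCA pump typical of blood cells, was at 487 and 496 CPM in lung PSGL1lo cells, against 624 and 683 CPM in lung PSGL1hi cells (log2 change -0.41 ± 0.09, edgeR adjusted p = 0.00151). Atp2a2, the pump found in nearly all tissues, was at 205 and 204 CPM in lung PSGL1lo cells, against 263 and 265 CPM in lung PSGL1hi cells (-0.37 ± 0.07, adjusted p = 0.000242). The fractions were apart in both genes by more than the spread of the libraries. In liver, Atp2a3 averaged 620 ± 7.47 CPM in the PSGL1lo cells and 715 ± 21.5 CPM in PSGL1hi cells, which did not pass (-0.21 ± 0.09, adjusted p = 0.122). Atp2a2 averaged 266 ± 15.4 CPM in liver PSGL1lo and 312 ± 8.41 CPM in liver PSGL1hi cells (-0.23 ± 0.07, adjusted p = 0.0193). The liver call of Atp2a2 was lost without liver PSGL1lo replicate 1 (-0.17) or without either liver PSGL1hi library (-0.26 without replicate 1 and -0.20 without replicate 2).

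In cGVHD spleen the SERCA genes gave no call between the fractions: Atp2a2 was at 280 ± 12.3 CPM in the PSGL1lo cells and 302 ± 9.88 CPM in PSGL1hi cells (-0.11 ± 0.07, edgeR adjusted p = 0.240), and Atp2a3 at 494 ± 36.7 CPM in the PSGL1lo cells and 498 ± 99.7 CPM in PSGL1hi cells (-0.01 ± 0.09, adjusted p = 0.942). The spleen PSGL1hi libraries were the most spread for Atp2a3, at 568 and 427 CPM, on both sides of the PSGL1lo values of 520 and 468 CPM. The lung effect on Atp2a3 was below the spleen effect by -0.40 ± 0.13 (adjusted p = 0.0411), which was lost without spleen PSGL1lo replicate 1, spleen PSGL1hi replicate 2 (-0.15), either lung PSGL1lo library or lung PSGL1hi replicate 2. Atp2a2 over Atp2a3 hardly moved with the fraction, at a mean log2 ratio of -1.27 in lung PSGL1lo and -1.31 in lung PSGL1hi, -1.22 in liver PSGL1lo and -1.20 in liver PSGL1hi, and -0.82 in spleen PSGL1lo and -0.71 in spleen PSGL1hi cells.

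The PMCA genes Atp2b1 and Atp2b4 went against Atp2b2. Atp2b1, the pump found in nearly all cells, was at 218 and 210 CPM in lung PSGL1lo cells, against 348 and 335 CPM in lung PSGL1hi cells. It was at 148 and 154 CPM in liver PSGL1lo cells, against 191 and 196 CPM in liver PSGL1hi cells. In cGVHD spleen it was at 188 and 199 CPM in PSGL1lo cells, against 229 and 241 CPM in PSGL1hi cells. PSGL1lo cells were below PSGL1hi cells in each tissue with no overlap. The log2 change was -0.68 ± 0.07 in lung (edgeR adjusted p = 9.07e-08), -0.35 ± 0.07 in liver (adjusted p = 0.000729) and -0.28 ± 0.07 in spleen (adjusted p = 0.00327; lost without spleen PSGL1lo replicate 1, -0.24). Lung was below spleen in this effect by -0.40 ± 0.10 (adjusted p = 0.00685; lost without spleen PSGL1hi replicate 1 or lung PSGL1lo replicate 2), and the difference from liver was -0.32 ± 0.10 (adjusted p = 0.0509).

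Atp2b4, another PMCA pump of non-excitable cells, was at 315 and 330 CPM in lung PSGL1lo cells, against 531 and 517 CPM in lung PSGL1hi cells. It was at 344 and 409 CPM in liver PSGL1lo cells, against 461 and 506 CPM in liver PSGL1hi cells. In cGVHD spleen it was at 255 and 252 CPM in PSGL1lo cells, against 274 and 265 CPM in PSGL1hi cells. The gap was wide in lung and narrow in spleen. The log2 change was -0.70 ± 0.08 in lung (edgeR adjusted p = 2.60e-07), -0.36 ± 0.08 in liver (adjusted p = 0.00143; -0.24 without liver PSGL1lo replicate 1) and -0.09 ± 0.08 in spleen (adjusted p = 0.418). The lung effect was below the spleen effect by -0.61 ± 0.11 (adjusted p = 0.000440), and by -0.34 ± 0.11 against liver, which did not pass (adjusted p = 0.0700).

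In liver, summed markers of other cells also differed between the fractions. The 8 hepatocyte markers summed to 57.5 to 64.6 CPM in the PSGL1lo cells and 27.8 to 32.0 CPM in PSGL1hi libraries, with none at 0 in either. The CD8 markers were at 28.0 to 31.5 CPM in liver PSGL1lo and 141 to 142 CPM in liver PSGL1hi libraries, and NK markers at 188 to 198 CPM in liver PSGL1lo and 356 to 360 CPM in liver PSGL1hi libraries, with Klra8 at 0 in both. In cGVHD spleen, CD8 markers summed to 11.8 to 12.3 CPM in the PSGL1lo cells and 77.5 to 77.6 CPM in PSGL1hi libraries. NK markers summed to 77.1 to 79.7 CPM in spleen PSGL1lo, with Ncr1 and Klra8 at 0, and 181 to 182 CPM in spleen PSGL1hi libraries, with none at 0. B and plasma cell markers summed to 19.9 to 21.2 CPM in spleen PSGL1lo and 54.8 to 59.9 CPM in spleen PSGL1hi libraries, with Cr2 at 0 in both. Myeloid markers summed to 220 to 228 CPM in spleen PSGL1lo, with none at 0, and 467 to 496 CPM in spleen PSGL1hi libraries, with Clec4f at 0. Their part in the results was not tested.

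**Figure D4:**
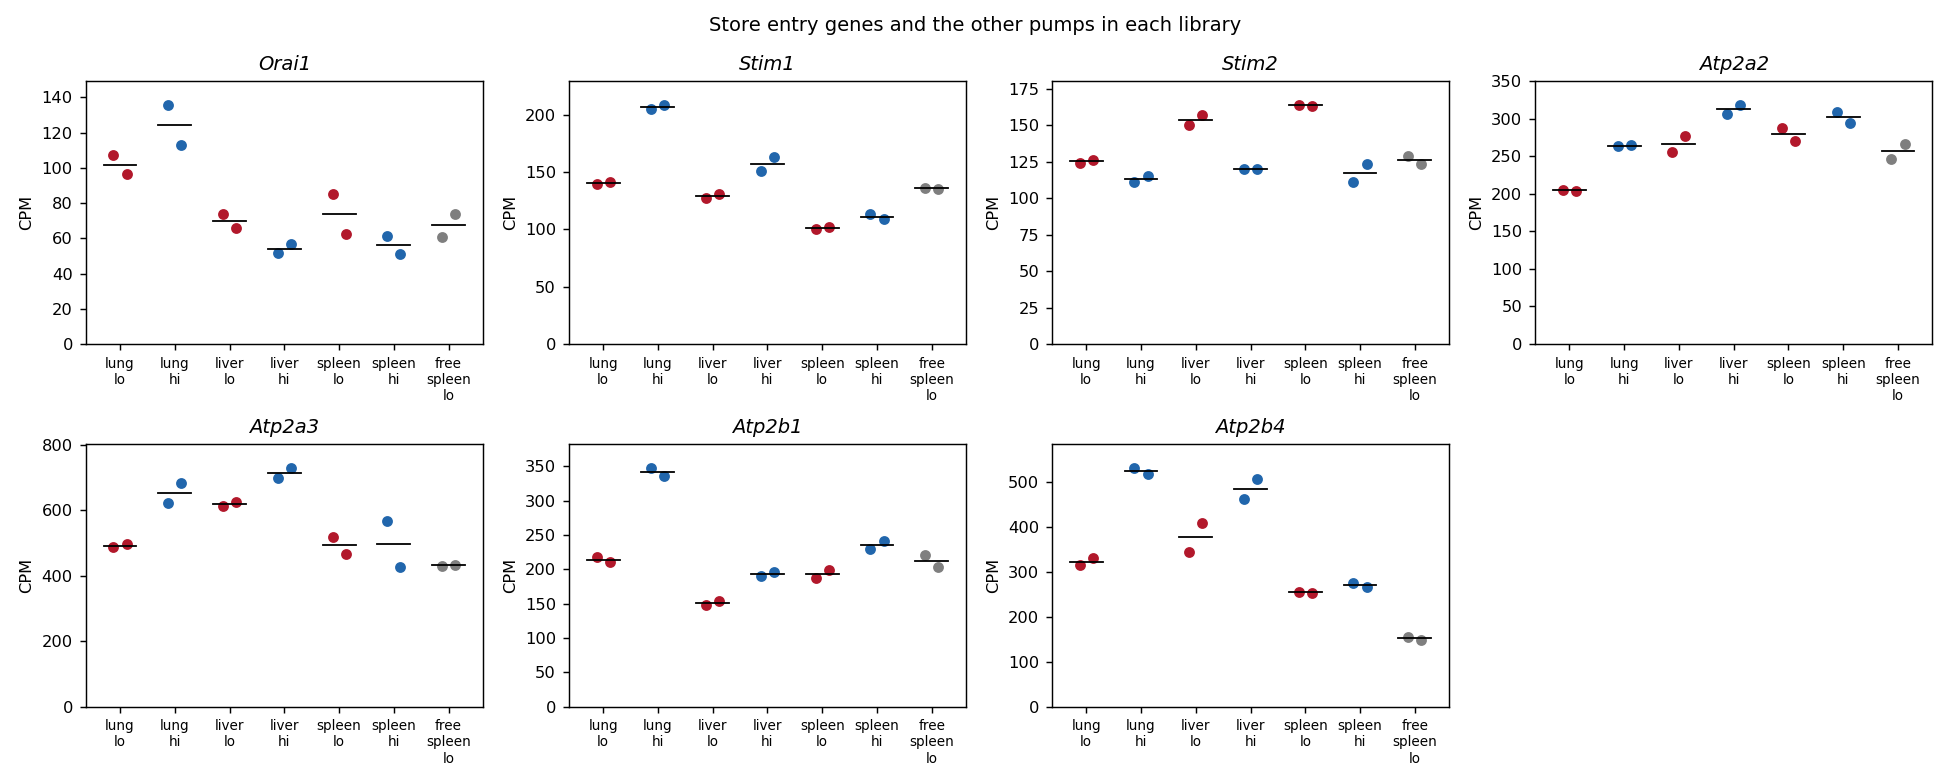
Levels in CPM (vertical axes from 0) of Orai1, the store sensors, the SERCA genes, Atp2b1 and Atp2b4, with 1 point per library (red PSGL1lo, blue PSGL1hi, grey GVHD-free) and a line at each group mean. Orai1 is highest in the lung groups, Stim1, Atp2b1 and Atp2b4 are highest in lung PSGL1hi cells, and Atp2b4 is lowest in GVHD-free spleen, at 152 CPM.

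The differences of the fraction effect between tissues gave 3 calls among the 9 genes for lung against liver, 2 higher and 1 lower (5.97% of all genes called, 2.08% higher and 3.89% lower). Lung against spleen gave 8 calls, 2 higher and 6 lower (16.6% of all genes, 5.51% higher and 11.1% lower). Liver against spleen gave 0 calls by edgeR, with 1 gene, Atp2b4, at an unadjusted p under 0.05, and 0 by DESeq2 and by limma-voom (6.84% of all genes called by edgeR, 2.64% higher and 4.2% lower). Leaving out spleen PSGL1hi replicate 1 or liver PSGL1lo replicate 2 gave 1 call in that comparison.

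In spleen PSGL1lo cells, cGVHD against GVHD-free gave 3 genes higher and 1 lower (27.5% of all genes called, 14.7% higher and 12.8% lower). The largest absolute change in CPM was that of Atp2b4, at 255 and 252 CPM in cGVHD and 155 and 149 CPM in GVHD-free cells (log2 change 0.74 ± 0.08, edgeR adjusted p = 2.08e-07). Atp2b2 was at 9.98 and 9.41 CPM in cGVHD and 4.45 and 6.66 CPM in GVHD-free cells (0.82 ± 0.20, adjusted p = 0.00346), a call lost without GVHD-free replicate 1 (0.54, adjusted p = 0.112). Stim2 rose to 164 and 164 CPM in cGVHD, against 129 and 124 CPM in GVHD-free cells (0.38 ± 0.07, adjusted p = 0.000394), and Stim1 fell to 101 and 102 CPM in cGVHD, against 136 and 135 CPM in GVHD-free cells (-0.42 ± 0.07, adjusted p = 8.65e-05). None of these pairs of groups overlapped. The log2 ratio of Stim1 to Stim2 was -0.69 ± 0.019 in cGVHD and 0.11 ± 0.033 in GVHD-free cells, and that of Atp2b1 to Atp2b4 was -0.39 ± 0.072 in cGVHD and 0.48 ± 0.041 in GVHD-free cells. Atp2b1 itself gave no call, at 193 ± 7.98 CPM in cGVHD and 212 ± 12.4 CPM in GVHD-free cells (adjusted p = 0.170).

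Cacna1d (log2 change 0.17 ± 0.16, edgeR adjusted p = 0.481), Orai1 (0.13 ± 0.13, adjusted p = 0.519), Atp2a2 (0.13 ± 0.07, adjusted p = 0.203) and Atp2a3 (0.19 ± 0.09, adjusted p = 0.140) did not pass between cGVHD and GVHD-free spleen PSGL1lo cells. The 10 B and plasma cell markers summed to 19.9 to 21.2 CPM in cGVHD, with Fcrla and Cr2 among those at 0, and to 75.4 to 76.0 CPM in GVHD-free libraries, with none at 0. The hepatocyte markers summed to 34.3 to 34.5 CPM in cGVHD and 12.4 to 14.04 CPM in GVHD-free libraries. Ttr, Serpina1a, Fgb and Cyp3a11 were at 0 in both groups, and Apoa2 was at 0 in GVHD-free cells as well. Of 6 tested hepatocyte markers, 1 was higher in cGVHD, 0 were lower and 5 were not called. The erythroid and platelet markers summed to 30.3 to 31.5 CPM in cGVHD and 17.3 to 19.1 CPM in GVHD-free libraries, and of 7 tested 3 were higher and 0 lower. Their part in the results was not tested.

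Between the organs in PSGL1lo cells, lung against liver gave 2 genes higher and 5 lower (39.9% of all genes called, 19.6% higher and 20.4% lower). The higher ones were Orai1, described above, and Atp2b1, with 214 ± 5.32 CPM in lung and 151 ± 4.10 CPM in liver (log2 change 0.50 ± 0.07, edgeR adjusted p = 6.27e-06). Beside Atp2b2, the lower ones were Atp2a2 (-0.38 ± 0.07, adjusted p = 0.000144), Atp2a3 (-0.33 ± 0.09, adjusted p = 0.00641), Stim2 (-0.30 ± 0.07, adjusted p = 0.00212) and Atp2b4 (-0.22 ± 0.08, adjusted p = 0.0245). The Atp2b4 call was lost without liver PSGL1lo replicate 2 (-0.09) or lung PSGL1lo replicate 1, and its change was -0.35 without liver PSGL1lo replicate 1. Markers of other cells differed between these groups. Myeloid markers summed to 874 to 1340 CPM in lung PSGL1lo, with Siglech and Clec4f at 0, and 43.4 to 126 CPM in liver PSGL1lo libraries, with none at 0; of 18 tested, 12 were higher and 4 lower in lung. Lung epithelium markers summed to 63.1 to 158 CPM in lung PSGL1lo and 27.0 to 27.9 CPM in liver PSGL1lo libraries, where Sftpc, Sftpb, Sftpa1, Scgb1a1 and Nkx2-1 were at 0. Hepatocyte markers summed to 33.1 to 39.9 CPM in lung PSGL1lo, where all but 2 of the 8 were at 0, and 57.5 to 64.6 CPM in liver PSGL1lo libraries. The 2 CD8 markers summed to 12.1 to 12.4 CPM in lung PSGL1lo and 28.0 to 31.5 CPM in liver PSGL1lo libraries. Of these 2, 0 were higher and 2 lower in lung, with a median log2 change of -1.52. Their part in the results was not tested.

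In PSGL1hi cells, lung against liver gave 3 genes higher and 3 lower (38.4% of all genes called, 20.1% higher and 18.3% lower). Orai1, Atp2b1 and Stim1 were higher in lung; Atp2b1 averaged 342 ± 8.94 CPM in lung and 193 ± 3.74 CPM in liver (0.82 ± 0.07, edgeR adjusted p = 3.70e-09), and Stim1 207 ± 2.80 CPM in lung and 157 ± 8.84 CPM in liver (0.40 ± 0.07, adjusted p = 7.70e-05). Atp2b2, Cacna1d and Atp2a2 were lower in lung, the last by a log2 change of -0.24 ± 0.07 (adjusted p = 0.00744; lost without liver PSGL1hi replicate 2, -0.22). Markers of other cells moved with this comparison. Myeloid markers summed to 812 to 1013 CPM in lung PSGL1hi, with Clec4f at 0, and 69.9 to 110 CPM in liver PSGL1hi libraries, with none at 0; of 18 tested, 12 were higher and 3 lower in lung. Lung epithelium markers summed to 237 to 263 CPM in lung and 66.8 to 70.7 CPM in liver PSGL1hi libraries, where Sftpc, Sftpb, Sftpa1 and Nkx2-1 were at 0. Hepatocyte markers summed to 29.4 to 34.1 CPM in lung PSGL1hi libraries, where Apoa1, Ttr, Serpina1a, Fgb and Cyp3a11 were at 0, and 27.8 to 32.0 CPM in liver PSGL1hi libraries, where none was at 0. These sums overlapped, while of 6 tested hepatocyte markers 1 was higher and 4 lower in lung. The 2 CD8 markers summed to 28.5 to 30.6 CPM in lung PSGL1hi and 141 to 142 CPM in liver PSGL1hi libraries. Of these 2, 0 were higher and 2 lower in lung, with a median log2 change of -2.17. The part of such RNA in these results was not tested.

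Against spleen, where organ and library numbering cannot be told apart, 5 of the 9 genes were higher and 1 lower in liver in each fraction. Over all genes, 57.7% were called in PSGL1lo (28.7% higher and 29% lower) and 57.9% in PSGL1hi cells (28.5% higher and 29.4% lower). In lung against spleen 5 were higher and 2 lower in PSGL1lo (60% of all genes called, 29.6% higher and 30.4% lower), and 5 higher and 3 lower in PSGL1hi cells (61.8% of all genes, 30.7% higher and 31% lower). The largest difference was that of Atp2b2 in liver against spleen, with 49.8 ± 3.41 CPM in liver and 9.70 ± 0.404 CPM in spleen PSGL1lo cells (log2 change 2.36 ± 0.16, edgeR adjusted p = 6.78e-11) and 32.8 ± 0.0638 CPM in liver and 5.14 ± 0.124 CPM in spleen PSGL1hi cells (2.67 ± 0.17, adjusted p = 1.27e-11). In lung against spleen, Atp2b2 was higher in PSGL1lo (1.27 ± 0.17, adjusted p = 9.30e-07) but lower in PSGL1hi cells (-1.37 ± 0.22, adjusted p = 1.77e-05). Cacna1d had the same signs, at 0.76 ± 0.15 in PSGL1lo (adjusted p = 0.000193) and -1.26 ± 0.19 in PSGL1hi cells (adjusted p = 8.47e-06). Atp2b4 was higher in both organs than in spleen in both fractions, by 0.35 ± 0.08 (lung PSGL1lo) to 0.96 ± 0.08 (lung PSGL1hi). Both SERCA and both STIM genes stayed within 1 log2 unit of the spleen in all 4 comparisons.

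Markers of other cells differed between the organs and the spleen. The 9 erythroid and platelet markers summed to 0.382 to 1.29 CPM in lung PSGL1lo and 0.744 to 1.22 CPM in liver PSGL1lo, against 30.3 to 31.5 CPM in spleen PSGL1lo libraries. They summed to 0.862 to 1.43 CPM in lung PSGL1hi and 0.725 to 1.12 CPM in liver PSGL1hi, against 41.2 to 42.6 CPM in spleen PSGL1hi libraries. Of 7 tested, 6 were lower than in spleen in PSGL1lo cells of each organ and 7 in PSGL1hi cells of each organ, and 2 of the 9 were at 0 in every group. Myeloid markers summed to 874 to 1340 CPM in lung PSGL1lo and 43.4 to 126 CPM in liver PSGL1lo, against 220 to 228 CPM in spleen PSGL1lo libraries. In PSGL1hi cells they summed to 812 to 1013 CPM in lung and 69.9 to 110 CPM in liver, against 467 to 496 CPM in spleen libraries. NK markers summed to 186 to 214 CPM in lung PSGL1lo and 188 to 198 CPM in liver PSGL1lo, against 77.1 to 79.7 CPM in spleen PSGL1lo libraries. Their part in the results was not tested.

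Ordered by group means, Cacna1d ran from lung PSGL1lo through liver PSGL1lo, spleen PSGL1lo, GVHD-free spleen PSGL1lo, liver PSGL1hi and spleen PSGL1hi to lung PSGL1hi, and among neighbours only lung and liver PSGL1lo overlapped. Atp2b2 ran from liver PSGL1lo through liver PSGL1hi, lung PSGL1lo, spleen PSGL1lo, GVHD-free spleen and spleen PSGL1hi to lung PSGL1hi, with an overlap of only GVHD-free spleen and spleen PSGL1hi. Atp2b4 ran from lung PSGL1hi through liver PSGL1hi, liver PSGL1lo, lung PSGL1lo, spleen PSGL1hi and spleen PSGL1lo to GVHD-free spleen, and no neighbours overlapped. Stim1 also had no overlapping neighbours, from lung PSGL1hi at the top through liver PSGL1hi, lung PSGL1lo, GVHD-free spleen, liver PSGL1lo and spleen PSGL1hi to spleen PSGL1lo. For Orai1, all groups but the 2 of the lung overlapped with a neighbour.

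By the root mean square difference of centred log2 levels over the 7 group means, Cacna1d and Atp2b2 were 1.03 log2 units apart, while the closest of the 9 to each other were Atp2a2 and Atp2a3, at 0.24. For each of the 6 genes whose group means spanned at least 1 log2 unit, the nearest of the other tested genes were listed as a description with no test. The gene nearest to Cacna1d was Npnt (nephronectin, an extracellular matrix protein), at 0.245 log2 units, and it was nearest in all 17 settings tried. Npnt averaged 16.6 ± 4.65 CPM in lung PSGL1lo and 2.001 ± 0.226 CPM in lung PSGL1hi cells, 12.03 ± 4.67 CPM in liver PSGL1lo and 4.18 ± 1.01 CPM in liver PSGL1hi cells, and 9.34 ± 1.01 CPM in spleen PSGL1lo and 3.66 ± 0.0805 CPM in spleen PSGL1hi cells. Next came Ulk4 at 0.346, which lay near the limit of detection, and 1700019D03Rik at 0.351. Atp2b2 had no close neighbour, its nearest being 1700029J03Rik at 0.803, Mesp2 at 0.823 and Fam3b at 0.841, all at low levels.

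The other lists were tighter. Stim1 was nearest to Rexo2 (0.0838), Foxk1 (0.0986) and Smc6 (0.09998), Orai1 to Birc3 (0.106), Junb (0.139) and Med7 (0.141), and Atp2b1 to Tatdn2 (0.0873), Zfp51 (0.109) and Hspd1 (0.110). Atp2b4 was nearest to Sfn (0.0964), Grap2 (0.121) and Klk8 (0.125). Grap2, an adaptor that works below the T cell receptor, averaged 313 CPM in lung PSGL1lo and 537 CPM in lung PSGL1hi cells. Rexo2, Tatdn2 and Sfn stayed within the nearest 3 in all 17 settings, whereas the others left it in some.

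Of 35 tested genes of calcium entry and store release other than the 9, 7 rose and 6 fell in lung PSGL1lo against PSGL1hi cells, with a median log2 change of -0.02 against -0.03 over all genes, of which 33% were called there. Ryr3, a release channel of the store, averaged 14.1 ± 2.25 CPM in lung PSGL1lo and 4.55 ± 0.382 CPM in lung PSGL1hi cells (1.63 ± 0.17, edgeR adjusted p = 1.27e-07). Cacna1s, an L-type channel pore known from skeletal muscle, averaged 2.94 ± 0.692 CPM in lung PSGL1lo and 0.950 ± 0.124 CPM in lung PSGL1hi cells (1.63 ± 0.29, adjusted p = 0.000137). Ryr2, the cardiac release channel, was at 0.778 ± 0.279 CPM in lung PSGL1lo cells and at 0 counts in both lung PSGL1hi libraries. The T-type channel gene Cacna1i was the lower one, at 0.729 ± 0.611 CPM in lung PSGL1lo and 2.39 ± 1.11 CPM in lung PSGL1hi cells (-1.73 ± 0.46, adjusted p = 0.00593). That call was lost without lung PSGL1lo replicate 1 or lung PSGL1hi replicate 2, and over single libraries left out, including lung PSGL1lo replicate 2, the value went from -2.94 to -1.05.

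The same list had 9 genes higher and 3 lower in liver (median 0.18; 20.8% of all genes called), and 10 higher and 5 lower in spleen (median 0.15; 32.5% of all genes). In liver, P2rx7, an ATP-gated cation channel, averaged 461 ± 18.2 CPM in the PSGL1lo cells and 219 ± 2.99 CPM in PSGL1hi cells (1.08 ± 0.07, edgeR adjusted p = 1.37e-10). Cacna1s (1.08 ± 0.24, adjusted p = 0.00276) and Ryr3 (0.91 ± 0.16, adjusted p = 0.000269) were higher in liver PSGL1lo cells, and Cacna1i was lower (-2.52 ± 0.48, adjusted p = 0.000607). In spleen, Ryr2 was at 1.38 ± 0.365 CPM in PSGL1lo cells and at 0 counts in both PSGL1hi libraries, and Cacna1i was lower in PSGL1lo cells (-2.24 ± 0.43, adjusted p = 0.000361). Cacna1g and Cacna1e, called there too, lay near the limit of detection: Cacna1g at 1.11 ± 0.0944 CPM in the PSGL1lo cells and 0.115 ± 0.102 CPM in PSGL1hi, and Cacna1e at 0.275 ± 0.0730 CPM in the PSGL1lo cells and 1.74 ± 0.256 CPM in PSGL1hi cells. The call of Cacna1g was lost without spleen PSGL1lo replicate 2 or spleen PSGL1hi replicate 2, and that of Cacna1e without any 1 of the 4 libraries.

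Between cGVHD and GVHD-free spleen PSGL1lo cells, 8 genes of this list rose and 5 fell (median 0.10; 27.5% of all genes called). P2rx7 averaged 463 ± 7.27 CPM in cGVHD and 199 ± 5.74 CPM in GVHD-free cells (1.22 ± 0.07, edgeR adjusted p = 6.89e-12). Itpr1, an inositol trisphosphate receptor of the store, averaged 697 ± 1.499 CPM in cGVHD and 314 ± 9.53 CPM in GVHD-free cells (1.15 ± 0.08, adjusted p = 1.81e-10). Cacna2d4, an auxiliary channel subunit, averaged 1.94 ± 0.215 CPM in cGVHD and 12.8 ± 1.97 CPM in GVHD-free cells (-2.71 ± 0.27, adjusted p = 7.09e-08). Cacna1e was at 0.275 ± 0.0730 CPM in cGVHD and 2.30 ± 0.716 CPM in GVHD-free cells, and its call was lost without GVHD-free replicate 1 or either cGVHD library.

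Of 16 other tested pumps, exchangers and mitochondrial uptake genes, 1 rose and 1 fell in PSGL1lo against PSGL1hi cells in lung (33% of all genes called), 0 rose and 1 fell in liver (20.8% of all genes), and 2 rose and 4 fell in spleen (32.5% of all genes). The median log2 change was 0.00 in lung, 0.01 in liver and -0.10 in spleen. In lung, Sln, a small inhibitor of SERCA pumps, was at 0.785 ± 0.0903 CPM in the PSGL1lo cells and 0.0628 ± 0.0334 CPM in PSGL1hi cells, near the limit of detection, and its call was lost without either PSGL1hi library. Slc8b1, the sodium-calcium exchanger of mitochondria, averaged 15.3 ± 1.47 CPM in lung PSGL1lo and 20.6 ± 2.80 CPM in lung PSGL1hi cells (-0.43 ± 0.13, edgeR adjusted p = 0.0150), a call lost without lung PSGL1lo replicate 2 or lung PSGL1hi replicate 1. In liver the called gene was Atp2c1, a calcium pump of the Golgi (-0.31 ± 0.09, adjusted p = 0.0126), lost without liver PSGL1lo replicate 1, which gave -0.19, or without either liver PSGL1hi library. In spleen, Micu3, a regulator of the mitochondrial uniporter, was higher in PSGL1lo cells (0.98 ± 0.19, adjusted p = 0.000499). The uniporter genes Smdt1 (-0.39 ± 0.10, adjusted p = 0.00629; lost without spleen PSGL1hi replicate 2, -0.26), Mcub (-0.51 ± 0.17, adjusted p = 0.0289; lost without either PSGL1lo library or PSGL1hi replicate 2) and Mcu (-0.27 ± 0.10, adjusted p = 0.0404; lost without any 1 of the 4) were lower there. Between cGVHD and GVHD-free cells 3 rose and 5 fell (27.5% of all genes called). The sodium-calcium exchangers Slc8a1 (-0.99 ± 0.30, adjusted p = 0.0170) and Slc8a2 (-1.95 ± 0.63, adjusted p = 0.0239) were lower in cGVHD, and Slc8b1 was higher (0.55 ± 0.14, adjusted p = 0.00601). The Slc8a2 call was lost without any 1 of the 4 libraries, that of Slc8a1 without GVHD-free or cGVHD replicate 1, and that of Slc8b1 without GVHD-free replicate 2 or cGVHD replicate 1.

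Of 25 tested genes of calmodulin, calcineurin and NFAT, 5 rose and 12 fell in lung PSGL1lo cells (median -0.15), where 12.9% of all genes were higher and 20.1% lower. In liver 2 rose and 10 fell (median -0.09), where 8.5% of all genes were higher and 12.3% lower. In spleen 6 rose and 5 fell (median 0.09), where 15.8% of all genes were higher and 16.7% lower. The catalytic calcineurin subunit Ppp3ca averaged 75.0 ± 0.627 CPM in lung PSGL1lo and 137 ± 12.1 CPM in lung PSGL1hi cells (-0.86 ± 0.09, edgeR adjusted p = 1.14e-07), and was also lower in liver (-0.53 ± 0.09, adjusted p = 0.000128). Rcan1, an inhibitor of calcineurin, averaged 19.7 ± 0.107 CPM in lung PSGL1lo and 11.3 ± 0.584 CPM in lung PSGL1hi cells (0.80 ± 0.13, adjusted p = 3.75e-05). Lrrk2, a kinase placed on the list as a negative regulator of NFAT, was higher in PSGL1lo cells by 1.94 ± 0.18 in lung (adjusted p = 2.58e-08), 1.56 ± 0.20 in liver (adjusted p = 5.50e-06) and 1.14 ± 0.18 in spleen (adjusted p = 4.27e-05). Camkk2, a kinase activated by calmodulin, was lower in lung PSGL1lo cells (-0.50 ± 0.12, adjusted p = 0.00299; lost without lung PSGL1lo replicate 1). Camk4, a calmodulin-dependent kinase, was lower in liver PSGL1lo cells (-0.43 ± 0.08, adjusted p = 0.000316).

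In spleen, beside Lrrk2, 3 other genes of that list are named. Nfatc2, an NFAT factor of T cells, averaged 209 ± 10.7 CPM in spleen PSGL1lo and 135 ± 7.41 CPM in spleen PSGL1hi cells (0.63 ± 0.08, edgeR adjusted p = 2.48e-06). The effect on Nfatc2 was lower in lung than in spleen by -0.86 ± 0.11 (adjusted p = 1.23e-05), with 253 ± 0.850 CPM in lung PSGL1lo and 296 ± 14.8 CPM in lung PSGL1hi cells. Camk2d was higher in spleen PSGL1lo cells (0.58 ± 0.07, adjusted p = 2.97e-06), and Camk1 was lower (-1.43 ± 0.54, adjusted p = 0.0475), a call lost without either spleen PSGL1lo library or spleen PSGL1hi replicate 2. Between cGVHD and GVHD-free cells 8 genes rose and 6 fell (14.7% of all genes higher and 12.8% lower). Ppp3ca averaged 75.7 ± 1.02 CPM in cGVHD and 35.0 ± 4.18 CPM in GVHD-free cells (1.12 ± 0.10, adjusted p = 1.14e-08), and Ppp3cc, another catalytic subunit, rose by 0.80 ± 0.08 (adjusted p = 7.64e-08). Lrrk2 was lower in cGVHD (-0.74 ± 0.17, adjusted p = 0.00189), and so was Camkk1, a kinase that acts on other calmodulin kinases (-0.66 ± 0.23, adjusted p = 0.0376), a call lost without any 1 of the 4 libraries.

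Of 16 genes that link the T cell receptor to calcium release, 3 rose and 6 fell in lung PSGL1lo cells (median 0.03; 33% of all genes called), 1 rose and 3 fell in liver (median 0.05; 20.8% of all genes), and 5 rose and 3 fell in spleen (median 0.01; 32.5% of all genes). Cd28, the costimulatory receptor, averaged 637 ± 58.1 CPM in lung PSGL1lo and 1085 ± 23.4 CPM in lung PSGL1hi cells (-0.77 ± 0.08, edgeR adjusted p = 7.69e-08), and its effect was lower in lung than in liver by -0.68 ± 0.11 (adjusted p = 0.000348). The kinase Txk (-0.88 ± 0.12, adjusted p = 7.47e-06) and the adaptor Grap2 (-0.78 ± 0.06, adjusted p = 3.13e-09) were lower in lung PSGL1lo cells as well. Txk was also lower in PSGL1lo cells of the liver (-0.70 ± 0.12, adjusted p = 0.000168) and spleen (-0.56 ± 0.13, adjusted p = 0.00193). In spleen PSGL1lo cells the phospholipase Plcg1 (0.38 ± 0.07, adjusted p = 0.000192), the receptor chain Cd3e (0.37 ± 0.08, adjusted p = 0.00201; lost without spleen PSGL1hi replicate 2) and the adaptor Lcp2 (0.34 ± 0.06, adjusted p = 0.000142) were higher. In liver, Prkcq (-0.27 ± 0.07, adjusted p = 0.00975), Grap2 (-0.21 ± 0.06, adjusted p = 0.0183) and Lcp2 (0.18 ± 0.06, adjusted p = 0.0343) were called too, and these calls were lost without either liver PSGL1hi library, those of Grap2 and Lcp2 also without liver PSGL1lo replicate 1, and that of Lcp2 also without liver PSGL1lo replicate 2. Between cGVHD and GVHD-free cells 5 rose and 4 fell (27.5% of all genes called), with Grap2 higher in cGVHD (0.70 ± 0.06, adjusted p = 2.30e-08) and Prkcq, a kinase of the same pathway, lower (-0.47 ± 0.07, adjusted p = 2.88e-05). Txk was lower as well (-0.58 ± 0.13, adjusted p = 0.00176; lost without GVHD-free replicate 1).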

How the data were processed

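Per the labels' protocols, the sorted cells gave RNA through Qiagen RNeasy columns, and a Kapa kit (mRNA HyperPrep) turned it into libraries. The authors deposited raw counts of reads for each gene; they used TopHat2 2.0.8, HTSeq and the mm9 assembly, per the submitters' processing notes. The sources used here name neither annotation nor strand setting. Columns were matched to samples by the names in the labels.

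In R 4.3.3, edgeR 4.0.16 was used: filterByExpr, TMM scaling, a quasi-likelihood model with 1 mean per group over all 14 libraries (biological coefficient of variation 7.35%, residual degrees of freedom 7), 2-sided F tests and Benjamini-Hochberg adjustment over 13780 genes; an adjusted p under 0.05 is a call. Scripts were tested on simulated counts. The tests needed no change from the planned design. The 9 genes, the pathway and marker lists and the tests were chosen with earlier results of these data known. From each pathway list, the up to 4 called genes with the largest log2 changes are named for PSGL1 fraction and disease; those of the tissue comparisons are left out, except where a gene so named also differed between tissues, and some genes that meet the rule are not reported here; nearest genes are the 3 with the smallest root mean square difference over the 7 group means of log2 CPM (prior count 2). Exon lengths and overlaps came from GENCODE M21, promoters from RefSeq GRCm38.p6; neither is the counting build. Libraries were treated as unpaired, and the labels do not say whether replicate numbers pair them. Deviations of replicate 1 from group means correlated at -0.06 to 0.08 over 21 pairs of groups, which cannot exclude pairing. The highest values were those between the fractions of lung (0.084) and of liver (0.070). In these tissues the column names of both fractions share letters by replicate number. Alternatives were DESeq2 size factors, no filter, DESeq2 1.42.0, limma-voom (limma 3.58.1), only the groups compared, a replicate block, and each library left out. The SE values come from the edgeR model and include its estimate of the spread between libraries, and the SD values are that spread within a group. The floors of 3 counts cover counting error only.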

Additional observations from a re-analysis of the deposited data

Results flagged for a closer look

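The PSGL1lo effect (log2 change of PSGL1lo over PSGL1hi cells) differed between tissues by the interaction contrast in edgeR for the following genes, each with its difference as lung minus the other tissue. Against liver these were Cacna1d at 2.14 (adjusted p = 5.15e-06), Atp2b2 at 2.95 (adjusted p = 4.20e-07) and Orai1 at -0.65 (adjusted p = 0.0300). Against spleen they were Cacna1d at 2.02 (adjusted p = 6.68e-06), Atp2b2 at 2.64 (adjusted p = 1.09e-06), Atp2b4 at -0.61 (adjusted p = 0.000440), Stim1 at -0.43 (adjusted p = 0.00411), Atp2b1 at -0.40 (adjusted p = 0.00685), Orai1 at -0.68 (adjusted p = 0.0115), Stim2 at -0.33 (adjusted p = 0.0265) and Atp2a3 at -0.40 (adjusted p = 0.0411). For Orai1, Stim2, Atp2a3 and Atp2b1 against spleen, and Orai1 against liver, the call was lost when some single libraries were left out, as given with each gene above.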

How the results depend on the processing

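Over the 176 pairs of a gene and a comparison that were recomputed, 116 kept direction and side of the threshold under every alternative and 60 changed under at least 1; the cause was not tested. With DESeq2, 6 of the 9 genes were called for the fraction effect of lung minus liver, against 3. Fitting only the groups compared gave 591 genes called for liver minus spleen, against 943. Under limma-voom the uncalled change of Atp2a3 between spleen fractions turned to 0.000856. With each library left out, the 9 genes gave 3 to 5 calls in spleen, 5 to 8 in liver, 4 to 7 for lung minus spleen (8 with all) and 0 to 1 for liver minus spleen. Over all genes, the calls were 1552 to 3696 between liver fractions (2866 with all), 475 to 1320 for lung minus liver (823), 1517 to 2047 for lung minus spleen (2282) and 331 to 2497 for liver minus spleen (943). Uncalled changes that turned sign ranged from -0.098 to 0.34 for Orai1 in cGVHD against GVHD-free, from -0.21 to 0.21 for Atp2a3 between spleen fractions, and from -0.067 to 0.077 for Atp2a3 in lung against spleen PSGL1lo. In liver against spleen, Orai1 ranged from -0.26 to 0.17 in PSGL1lo and from -0.20 to 0.077 in PSGL1hi, Stim2 from -0.055 to 0.095 and Atp2a2 from -0.0031 to 0.078 in PSGL1hi. For liver minus spleen, Cacna1d ranged from -0.38 to 0.11, Orai1 from -0.24 to 0.20 and Atp2a3 from -0.40 to 0.021. Whether replicate numbers pair libraries is not known. With the number as a replicate block, the 9 genes gave 7 calls in lung, 8 in liver, 5 in spleen and 4 for disease, as without it. The block was a single shift by replicate number, shared by all groups, so it cannot show whether libraries pair within a tissue. With the block 4472 genes were called in lung (4546 without the block), and Camk1 in spleen lost its call. Depth limits genes near the floor of 3 counts, such as Ryr2, Cacna1e and Sln, but none of the 9.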
